A study of Mus musculus with 4 samples.

Results

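The genes described are 8 that encode parts of the dystrophin glycoprotein complex of the muscle cell membrane. They are dystrophin (Dmd), its homologue utrophin (Utrn), dystroglycan (Dag1), alpha-, beta- and delta-sarcoglycan (Sgca, Sgcb and Sgcd), alpha-dystrobrevin (Dtna) and beta-1-syntrophin (Sntb1). They were chosen by name, and every region of the deposited list that overlapped a gene, or the 2000 bp on either side of it, by at least 1 bp was taken. This gave 19 of the 39231 listed regions, over 6 of the 8 genes. A region on the list is a short stretch of DNA, 259 bp at the median, where the tamoxifen library had less signal than the oil library. The signal is read here as captured, methylated DNA, which the file headers do not state.

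In muscle the complex links the actin cytoskeleton to the extracellular matrix. Dystrophin or utrophin binds actin inside the cell and dystroglycan at the membrane, dystroglycan binds laminin outside, and the sarcoglycans brace dystroglycan from within the membrane. Dystrobrevins and syntrophins attach to dystrophin and carry signalling proteins. Loss of dystrophin or of a sarcoglycan is known to cause muscular dystrophy in mice and humans. Satellite cells, the stem cells of muscle, are known to use dystrophin for their polarity when they are activated.

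The cells were satellite cells from hindlimb muscle of 9-week-old mice, grown in culture for 3 days. The tamoxifen group had received tamoxifen on 5 consecutive days (150 µl at 20 mg/ml per injection) to induce Cre recombination and so delete Uhrf1, a protein that directs DNA methylation to newly copied DNA, and the control group received oil. The Cre driver and the Uhrf1 allele are not given in the sources used here. Capture with MBD2, which binds methylated DNA, gave 2 fractions, and the series has 1 methylated and 1 non-methylated library for each treatment, that is 4 groups of 1 library.

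After duplicate tags had been removed, the tamoxifen library held 25614791 tags and the oil library 19534328, per the file headers. Before removal they held 36519772 and 35216008 tags, so the libraries differed mainly in their share of duplicates, 0.30 in tamoxifen and 0.45 in oil. The scaling used below rests on the counts after removal. The headers do not say which DNA part the alignments came from, and they were read here as the captured, methylated part. With 1 library per treatment there is no spread between mice, no test was made, and Uhrf1 loss cannot be told apart from tamoxifen, culture or capture. Nor can fewer cells with a methylated site be told apart from less methylation in each cell. The authors' fold is oil over tamoxifen, so that a larger fold means a lower tamoxifen signal. Signal kept is the tamoxifen tag count over the region's summit, scaled by 0.763 to the size of the oil library, as a percentage of the oil tags. Its limits are exact (Clopper-Pearson) 95% limits and cover counting error only. The list measures no RNA, so muscle marker expression could not be checked.

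A listed region was found over 6 of the 8 genes. The same held for 38.2% of 34614 protein-coding and lncRNA genes, and for 45.2% of 21887 protein-coding genes. Long genes carry regions more often, so each gene was also set beside protein-coding genes of 0.5 to 2 times its length. There the share with a region was 93.8% for Dmd, 90.3% for Utrn, 67.8% for Dag1, 41.8% for Sgca, 43.6% for Sgcb, 94.9% for Sgcd, 87.0% for Dtna and 85.8% for Sntb1. In carrying at least 1 region, Dmd, Utrn, Sgcd, Dtna and Dag1 were thus like most genes of their length, and Sntb1 was the long gene without a region. The number of regions per gene differed more from that of genes of like length and is given below. At a stricter q limit of 1e-10 the 6 genes still had 1 or more each, beside 41.4% of protein-coding genes.

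The 19 regions lost signal to about the depth seen across the list. Their tamoxifen tags ran from 2 or fewer to 71 with a median of 14, and their oil tags from 24 to 150 with a median of 53. The medians over all listed regions were 14 tamoxifen and 51 oil tags. The signal kept in the tamoxifen library had a median of 18.4% over the genes' regions and 20.1% over all regions. A fold of 4 or more was reached by 15 of the 19, beside 66.1% of all listed regions, and a fold of 10 or more by 2, beside 2.03%. The 3 regions under 3-fold, a class that holds 10.2% of the list, all lay in Sgcd. Widths were 205 to 452 bp with a median of 265 bp.

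**Figure D1:**
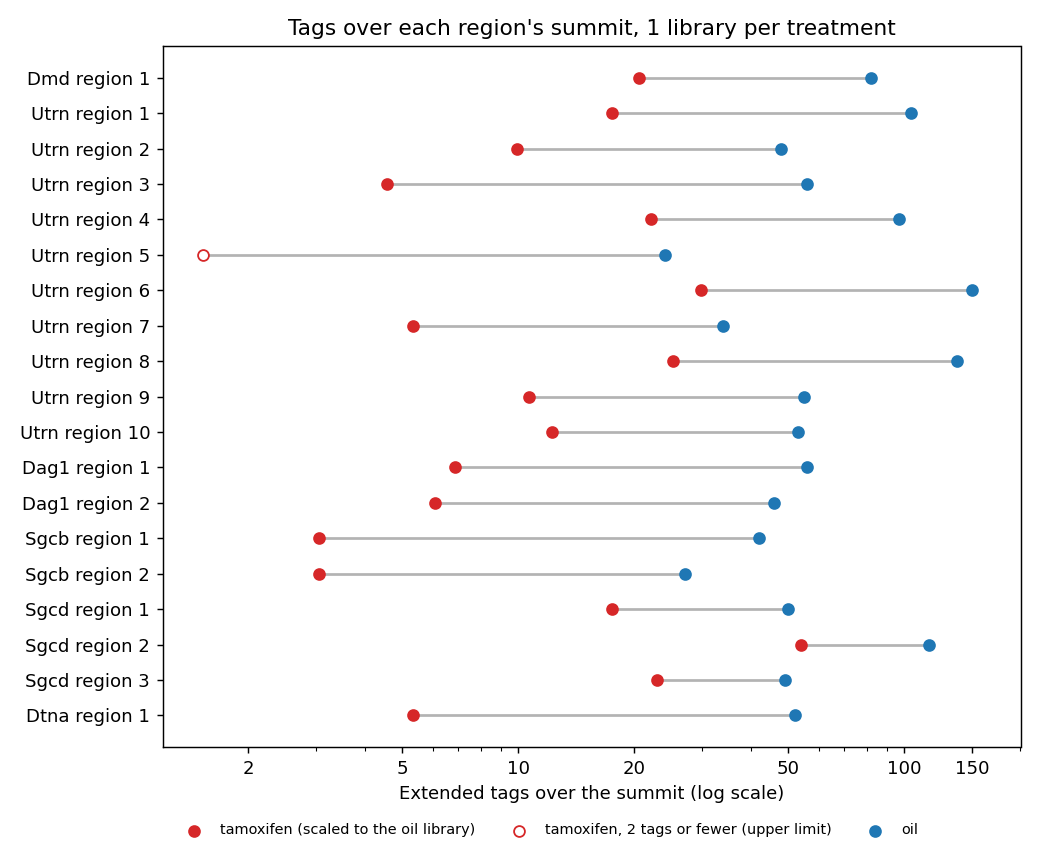
Extended tags over the summit of each of the 19 regions (log scale), tamoxifen tags scaled to the oil library in red and oil tags in blue, with 1 library per treatment; the open circle is an upper limit of 2 unscaled tags. Tamoxifen lies left of oil in all 19 rows, which the list requires, and the 3 Sgcd rows have the shortest lines.

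Dmd carried 1 region in 2390.4 kb. The gene, which encodes the large protein that ties actin to the membrane complex, spans chromosome X from 82814664 to 85205050 (GRCm38, the assembly of mm10) and is the longest protein-coding gene in the annotation. Its region, from 83847938 to 83848373, lay 43.2% of the way along the gene, 1033 kb from the left end. It had 27 tamoxifen and 82 oil tags, and the tamoxifen library kept 25.1% of the oil signal (limits 15.6% to 39.2%). The authors' fold of 3.84 exceeded that of 29.7% of all listed regions, and its 82 oil tags exceeded those of 78.0%. It was thus a well covered region with a moderate difference.

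One region is few for a gene of this size, on a chromosome with few regions. At the mean density of chromosome X, 0.325 regions per 100 kb, a span as long as Dmd with its flanks would hold 7.79. Of 32 other protein-coding genes of 0.5 to 2 times its length, 28 had more regions, 2 had as many and 2 had fewer, and their median was 4.5. Only 2 of these lay on chromosome X, Il1rapl1 with 3 regions and Il1rapl2 with 2 (named after their values were seen). The next longest on chromosome X, below that length range, were Frmpd4 (1105936 bp) with 0 and Tenm1 (901303 bp) with 1. Of 114 protein-coding genes of 100 kb or more on chromosome X, 39 (34.2%) carried a region, against 87.5% of 2313 such genes on autosomes. The median density of the 114 was 0 regions per 100 kb, beside 0.0418 for Dmd, so a low count was not particular to Dmd there. Genes of 1 Mb or more numbered 59, and 9 of them had 1 region or none. The nearest regions outside Dmd lay 606 kb beyond its left end and 761 kb beyond its right end.

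RefSeq gives 2 promoter windows for Dmd, each from 250 bases before to 50 after a transcription start, 1 near the left end and 1 near the right end of the gene. Both windows lie inside the annotated gene, and none covers its left end. The 2 windows are shown because no region lay near either, and because they differ in CG dinucleotides, the sites that MBD2 binds when methylated. The upstream window (chrX:82948620-82948919, plus strand) has 2 CG, and 85.9% of 32851 windows in the table have at least as many. The internal window (chrX:85048045-85048344, plus strand), at a start from which shorter dystrophin products can be made, has 14, a number that 36.3% of windows reach. CG is in capitals, 5′ to 3′, from RefSeq on GRCm38.p6.
Dmd upstream start: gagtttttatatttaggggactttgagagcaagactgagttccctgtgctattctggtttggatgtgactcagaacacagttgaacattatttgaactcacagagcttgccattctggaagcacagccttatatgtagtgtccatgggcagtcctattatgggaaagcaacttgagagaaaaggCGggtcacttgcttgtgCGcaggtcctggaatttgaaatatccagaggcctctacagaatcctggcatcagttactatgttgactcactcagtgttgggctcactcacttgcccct
Dmd internal start: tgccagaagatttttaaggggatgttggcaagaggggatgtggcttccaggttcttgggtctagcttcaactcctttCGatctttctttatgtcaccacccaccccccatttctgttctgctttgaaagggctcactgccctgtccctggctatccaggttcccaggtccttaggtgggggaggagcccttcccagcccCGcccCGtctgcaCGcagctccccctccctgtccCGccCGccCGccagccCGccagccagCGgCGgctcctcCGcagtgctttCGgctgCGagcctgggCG

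The Dmd region's summit lay 899 kb from the nearer of these starts, and the nearest listed region on chromosome X was 740 kb from the upstream window and 917 kb from the internal one. In the table at large, 419 of 32851 windows (1.28%) were overlapped by a region, and none of the 8 windows of Dmd, Utrn, Dag1, Sgca, Sgcb and Sgcd was. The share depended on CG content. It was 0.376% of windows with 0 to 4 CG, 3.23% with 5 to 9, 2.89% with 10 to 19 and 0.172% with 20 or more. With a background of this size, 0 of 8 says nothing particular about these genes. A window without a listed region may be unmethylated, unchanged, higher after tamoxifen or too thinly covered, and the list does not separate these.

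Utrn carried 10 of the 19 regions. Utrophin is the homologue that can stand in for dystrophin at the membrane and in adult muscle is concentrated at neuromuscular junctions. The gene lies on chromosome 10 from 12382187 to 12869888 (488 kb, minus strand), and all 10 regions were inside it. The count was close to the 9.42 that the mean density of chromosome 10 gives for this length. Among 680 protein-coding genes of like length the median was 3 regions (quartiles 2 and 7), and 84.3% had fewer than 10. On chromosome 10 itself, 5 of 36 such genes had more.

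The regions of Utrn are numbered from the left end of the gene, that is from the 3′ end of its transcript. Region 3 (12501248 to 12501476) had the highest fold in the gene, with 6 tamoxifen and 56 oil tags, and kept 8.17% of the oil signal (limits 2.88% to 18.9%). That fold, 10.22, exceeded that of 98.3% of listed regions. Region 5 (12627955 to 12628165) was set by the caller's lowest background, with 2 or fewer tamoxifen tags against 24 oil tags, so that it kept at most 6.36% as counted, with an upper limit of 25.6%. These 2 kept the least signal of the 10, and region 5 rests on few tags.

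The best covered Utrn regions kept more signal, as counted, than regions 3 and 5. Region 6 (12636146 to 12636454) had 39 tamoxifen and 150 oil tags and kept 19.8% (limits 13.6% to 28.4%). Region 8 (12682371 to 12682671) had 33 tamoxifen and 137 oil tags and kept 18.4% (12.2% to 27.0%), and region 1 (12440182 to 12440475) had 23 tamoxifen and 104 oil tags and kept 16.9% (10.2% to 26.7%). These 3 are the richest in oil tags and their limits overlap each other and those of regions 3 and 5.

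The remaining Utrn regions kept 15.7% to 23.0%. Region 4 (12616601 to 12617052), the widest of the 19 at 452 bp, had 29 tamoxifen and 97 oil tags and kept 22.8%. Region 10 (12775037 to 12775252), the nearest to the gene's start, had 16 tamoxifen and 53 oil tags and kept 23.0%, the most in Utrn. Regions 2, 7 and 9 (starting at 12486435, 12671591 and 12747777) had 13, 7 and 14 tamoxifen tags against 48, 34 and 55 oil tags. All 10 regions reached 4-fold, and the lowest fold was 4.09.

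Along Utrn the regions lay closest together in the middle. Regions 4 to 8 lay within 66.1 kb, 13.5% of the gene, and the closest pair, regions 5 and 6, were 7.98 kb apart. Regions 4 to 8 were picked from these data as the run of 5 with the shortest span, which was not tested. The longest gap, 115 kb, lay between regions 3 and 4. No summit lay in the last 58 kb of the gene at its left end or in the 94.7 kb at its right end. The RefSeq window of Utrn (chr10:12861686-12861985, 2 CG) lies inside the annotated gene, and no window covers the gene's right end. The start in this window was 86.5 kb from the nearest summit inside Utrn. The nearest listed region to the window, of 3.55-fold, was 20.4 kb away, outside the gene on its upstream side.

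**Figure D2:**
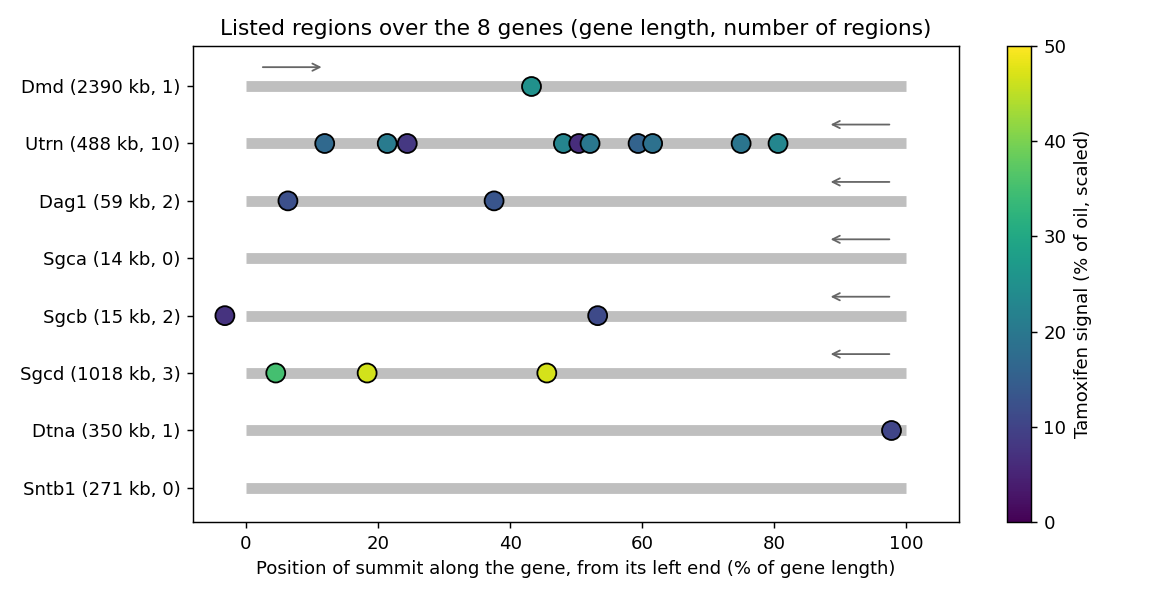
Summits of the 19 regions along the 8 genes, each gene drawn from its left end (0) to its right end (100% of its length), with an arrow for the direction of transcription where the promoter table gives it and colour for the tamoxifen signal as a percentage of oil. Utrn has 10 regions, 5 of them between 48.1% and 61.6% of its length, the left-most Sgcb point lies outside the gene, and Sgca and Sntb1 have none.

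Dag1, which encodes both subunits of dystroglycan, the laminin receptor of the complex, carried 2 regions over 59.1 kb of chromosome 9 (108204861 to 108263977, minus strand). Both were well below the oil level. Region 1 (108208468 to 108208776), 3.76 kb from the 3′ end by its summit, had 9 tamoxifen and 56 oil tags and kept 12.3% of the oil signal (limits 5.33% to 24.97%). Region 2 (108226966 to 108227258) had 8 tamoxifen and 46 oil tags and kept 13.3% (5.41% to 28.4%). The folds of 7.25 and 6.62 exceeded those of 88.8% and 83.7% of listed regions. The chromosome's mean density gives 1.04 regions for this length, and 1504 of 5646 genes of like length had more than 2.

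The start of Dag1 is covered by 2 overlapping RefSeq windows with 30 and 47 CG, numbers that 11.7% and 1.44% of all windows reach. Both regions lay in the body of the gene, at 93.6% and 62.4% of the way from start to end. The nearest listed region to either window was 13.1 kb away, outside the gene on its upstream side.

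The sarcoglycans form a subcomplex in the membrane, and the 3 members differed in number of regions. Sgcb and Sgcd, which had regions, also differed in signal kept as counted. Sgca, 13.6 kb on chromosome 11 (94962777 to 94976327), carried none, as did 58.2% of 7558 protein-coding genes of like length. The nearest regions were 19.5 kb to its left and 25.5 kb to its right. Alpha-sarcoglycan is made mainly in striated muscle. Its RefSeq window (chr11:94976278-94976577) has 4 CG.

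Sgcb, 15.0 kb on chromosome 5 (73632749 to 73647737, minus strand), carried 2 regions, and both kept little signal. Region 1 (73632158 to 73632422) had 4 tamoxifen and 42 oil tags and kept 7.26% of the oil signal (limits 1.89% to 20.0%). Its fold of 10.62 was the highest of the 19 and exceeded that of 98.6% of listed regions. Region 2 (73640637 to 73640864), inside the gene at 46.7% of the way from its start, had 4 tamoxifen and 27 oil tags and kept 11.3% (2.87% to 32.4%). Only 520 of 7741 genes of like length had more than 2 regions, 863 had 2, and the median was 0.

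The stronger Sgcb region is not inside Sgcb. It began beyond the 3′ end of the gene, 327 bp away at its nearest base, and 264 of its 265 bp lay in the neighbouring gene Lrrc66 (73606642 to 73632421, minus strand), which encodes a leucine-rich repeat protein. Its summit was 151 bp past the RefSeq start of Lrrc66. It is the one region of the 19 that overlapped another annotated gene or any RefSeq promoter window. The windows of both genes are shown from RefSeq on GRCm38.p6, 5′ to 3′. In the Lrrc66 window (chr5:73632372-73632671, minus strand) the capitals are the 51 bases that the region covers, with 2 of the window's 7 CG. In the Sgcb window (chr5:73647688-73647987, minus strand) the capitals are its 24 CG, a number that 20.0% of windows reach.
Lrrc66 start: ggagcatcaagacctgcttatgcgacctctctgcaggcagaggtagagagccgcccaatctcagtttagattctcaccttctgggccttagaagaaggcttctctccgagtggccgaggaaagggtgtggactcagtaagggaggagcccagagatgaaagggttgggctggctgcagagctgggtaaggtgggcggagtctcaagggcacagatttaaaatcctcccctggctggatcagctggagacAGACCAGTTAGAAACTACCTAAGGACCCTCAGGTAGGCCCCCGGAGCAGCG
Sgcb start: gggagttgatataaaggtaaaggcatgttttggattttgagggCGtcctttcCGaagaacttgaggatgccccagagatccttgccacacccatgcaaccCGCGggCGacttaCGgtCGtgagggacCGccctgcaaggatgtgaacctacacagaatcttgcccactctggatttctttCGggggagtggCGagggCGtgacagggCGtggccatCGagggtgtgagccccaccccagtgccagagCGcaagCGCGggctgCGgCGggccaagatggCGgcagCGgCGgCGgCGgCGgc

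The Sgcb window was 6.82 kb from the nearest region, region 2. The region at the Lrrc66 start, with 7 CG in the window, falls in the class of 5 to 9 CG, where 3.23% of windows were overlapped. Without it Sgcb had 1 region.

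Sgcd, which encodes delta-sarcoglycan, carried 3 regions over 1018 kb of chromosome 11 (46971077 to 47989451, minus strand), and all kept more signal than any region of the other genes. Region 1 (47016932 to 47017176) had 23 tamoxifen and 50 oil tags and kept 35.1% of the oil signal (limits 20.4% to 58.6%). Region 2 (47157860 to 47158064) had 71 tamoxifen and 116 oil tags and kept 46.7% (34.2% to 63.3%). Region 3 (47434838 to 47435089) had 30 tamoxifen and 49 oil tags and kept 46.7% (28.6% to 75.04%). Their folds of 2.75, 2.12 and 2.09 exceeded those of 6.41%, 1.03% and 0.925% of listed regions.

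The limits of these regions overlap those of several regions in the other genes, among them the Dmd region. Only region 2 of Sgcd was past a q limit of 1e-10. With unscaled tamoxifen tags, only region 1 remained above 2-fold (2.13-fold), and the other folds were 1.63 and 1.61.

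Region 3 of Sgcd lay close to the limit of what the list holds. Its -log10 q was 4.14 beside the authors' limit of 1e-04, and its summit was 1 bp from the region's right edge. Across the list, regions with 21 to 40 tamoxifen tags had at least 38 oil tags, and no region had fewer than 13 oil tags. The 3 regions were 141 and 277 kb apart, and no summit lay in the right-hand 554 kb of the gene. The mean density of chromosome 11 gives 20.6 regions for this length. Among 216 genes of like length the median was 4, 70 had fewer than 3 and 114 had more. The RefSeq window of Sgcd (chr11:47379276-47379575, 12 CG) lies well inside the annotated gene, and the nearest region, region 3, was 55.3 kb away on its upstream side.

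**Figure D3:**
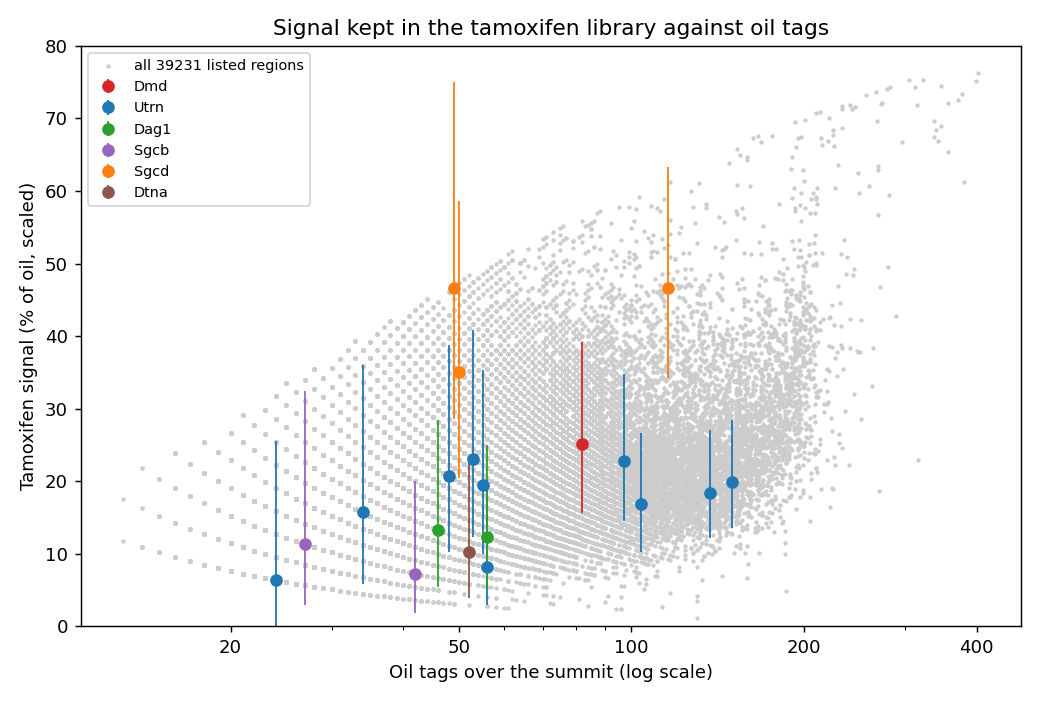
Tamoxifen signal as a percentage of oil (scaled) against oil tags over the summit (log scale) for all 39231 listed regions in grey and the genes' 19 regions in colour, with bars for 95% counting limits. The 3 Sgcd points, at 35.1% to 46.7%, lie above the other 16, at 6.36% to 25.1%.

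The adaptor genes carried 1 region between them. Dtna encodes alpha-dystrobrevin, which binds dystrophin and syntrophins, and spans 350 kb on chromosome 18 (23310006 to 23659719). Its region (23651575 to 23652005) lay 8.05 kb from the right end of the gene by its summit. It had 7 tamoxifen and 52 oil tags and kept 10.3% of the oil signal (limits 3.93% to 22.7%), and its fold of 8.36 exceeded that of 94.4% of listed regions. The chromosome's mean density gives 5.37 regions for this length, and 760 of 1056 genes of like length had more than 1.

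Sntb1 encodes a syntrophin, an adaptor that binds dystrophin and signalling proteins, and spans 271 kb on chromosome 15 (55636388 to 55907302). It carried no region, where the chromosome's mean density gives 4.93. Of 1448 protein-coding genes of like length, 205 (14.2%) had none, and on chromosome 15 this held for 5 of 70. The nearest regions lay 29.7 kb to its left and 129.6 kb to its right.

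**Figure D4:**
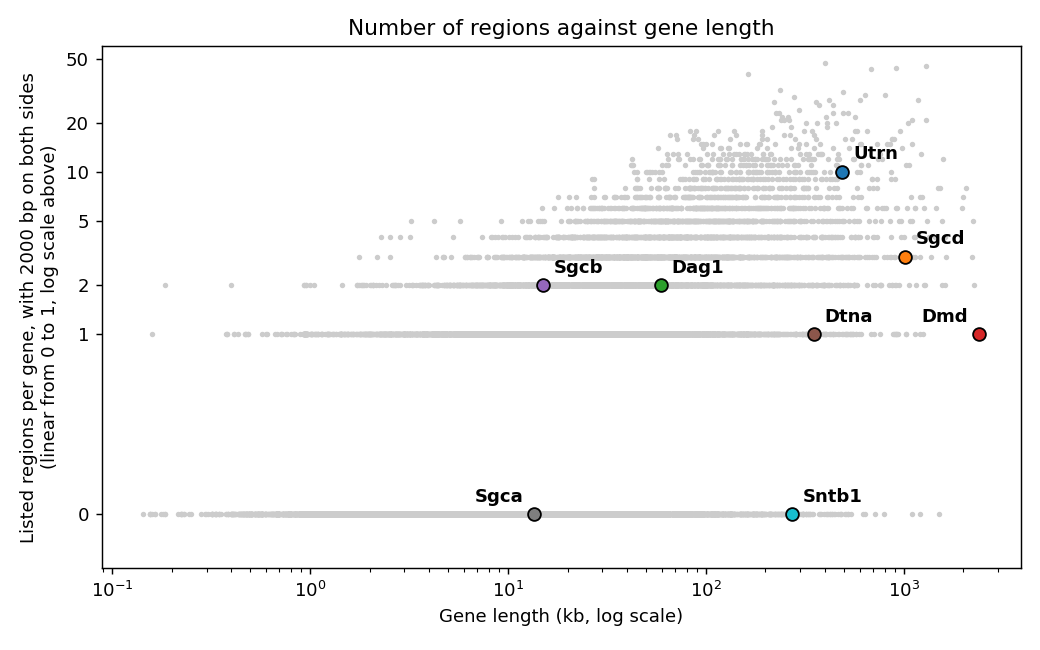
Number of listed regions per gene, counted with 2000 bp on both sides, against gene length (log scale) for protein-coding genes in grey and the 8 genes in colour. Dmd has 1 region at 2390.4 kb and Sntb1 none at 271 kb, while Utrn has 10 at 488 kb.

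The rest of the pathway was counted over 36 other genes in 3 groups. The first holds other complex members, homologues and partners, and 9 of 12 carried a region. Of the 12, 11 are 25 kb or longer, a size at which 70.0% of protein-coding genes carry one. Dtnb (beta-dystrobrevin) had 4, the highest at 8.07-fold (2 or fewer tamoxifen against 24 oil tags). Sgce (epsilon-sarcoglycan, an imprinted gene) had 5, the highest at 7.73-fold (7 tamoxifen against 48 oil tags). Of these 5, 1 lay 331 bp outside Sgce and over its neighbour Peg10. Then came the syntrophin gene Sntg1 (6.36-fold, 9 tamoxifen against 49 oil tags), the membrane repair gene Dysf (5.995-fold, 7 tamoxifen against 37 oil tags), the dystrophin-related gene Drp2 on chromosome X (5.80-fold, 31 tamoxifen against 142 oil tags) and the nitric oxide synthase gene Nos1 (5.43-fold, 4 tamoxifen against 21 oil tags). Sntg2, Dytn and Cav3 had none.

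Among sarcoglycan genes, Sgcz (zeta-sarcoglycan), named after its values were seen, has 1144 kb, a length like that of Sgcd, and also had 3 regions. Its highest fold was 4.92 (16 tamoxifen and 64 oil tags, 19.1% kept, limits 10.3% to 33.4%), and its other folds were 3.38 and 3.20. The highest fold in Sgcd was 2.75.

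All 10 genes of the second group, which encode ligands of dystroglycan, carried a region. All are 25 kb or longer, where the share of protein-coding genes is 70.0%, and their median length is 135 kb. All 10 lie on autosomes, where 87.5% of 2313 protein-coding genes of 100 kb or more carry a region. Hspg2, which encodes perlecan, had 11, the highest at 10.97-fold (2 or fewer tamoxifen against 33 oil tags), and 1 of the 11 lay 485 bp outside the gene and over Ldlrad2. Egflam, which encodes pikachurin, had 3 (9.68-fold, 2 or fewer tamoxifen against 29 oil tags). The laminin genes followed, Lama2 with 3 (8.82-fold, 3 tamoxifen against 28 oil tags), Lama1 with 8 (6.69-fold, 3 tamoxifen against 21 oil tags), Lamb1 with 3 (6.39-fold, 3 tamoxifen against 20 oil tags) and Lamc1 with 4 (6.23-fold, 5 tamoxifen against 29 oil tags). Lama2 encodes the chain of the main muscle laminin, and its 3 regions lay in 636 kb.

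Of 14 genes for the glycosylation of dystroglycan, which makes it able to bind laminin, 4 carried a region. Of the 14, 12 are under 25 kb, where 29.1% of protein-coding genes carry one, and the median length is 11.8 kb. The highest folds were at Pomgnt1 (9.73-fold, 3 tamoxifen against 31 oil tags), B3galnt2 (5.86-fold, 13 tamoxifen against 63 oil tags), Pomk (4.97-fold, 33 tamoxifen against 129 oil tags) and Pomgnt2 (4.39-fold, 16 tamoxifen against 57 oil tags, in a region that also overlaps Gask1a). Large2, Pomt1, Pomt2, B4gat1, Rxylt1, Gmppb, Dpm1, Dpm2, Dpm3 and Dolk had none.

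Over all 3 groups, 23 of 36 genes carried a region. At or above a length of 25 kb, a split made after the values were seen, 20 of 23 did, beside 70.0% of protein-coding genes of that size. The share is higher in longer genes, at 87.5% of autosomal protein-coding genes of 100 kb or more. Below 25 kb, 3 of 13 did, beside 29.1%. The median fold of the 71 regions was 4.67, beside 5.27 over the 19 regions of the 8 genes and 4.61 over the whole list.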

How the data were processed

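The single deposited list was used. Per the labels' protocols, DNA from cultured satellite cells was sheared, split with an MBD2-based kit and sequenced from fragments of 250 to 350 bp. The submitters' processing notes name Trim Galore, HISAT2 and mm10. The authors called regions with MACS 2.2.6 (oil as treatment, tamoxifen as control, q limit 1e-04, 1 tag per position and strand, tags of 130 bp extended to 201 bp, no regional background, larger library scaled down), per the file headers. The deposited pileup is a signal, the extended oil tags over the summit. The deposited fold is the ratio of oil plus 1 to scaled tamoxifen plus 1. The -log10 p and -log10 q columns, as deposited, had lost their headings and were told by their place. These values compare 2 libraries.

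Tamoxifen tags were computed from pileup and fold with Python 3.11.15 and pandas 2.3.3, and were whole within 0.02 tags in 38251 regions (97.5%). In the other 980 they equalled the genome mean, that is 2 or fewer tags. The counting was tested on simulated data. Summits are where oil was highest, so folds are biased upward. Genes came from the RefSeq table of GRCm38.p6, which gives no exons. Strand came from the RefSeq promoter windows, which do not cover Dtna and Sntb1. Exons and region sequences were not used here. The rule named all 8 genes, each of their regions where there were 10 or fewer, and at most the 6 related genes of highest fold per group. Some planned related genes are not reported here. Genes, lists and rules were chosen with earlier results of these data known. The alternatives changed the q limit, flank, overlap, joining and scaling.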

Additional observations from a re-analysis of the deposited data

How the results depend on the processing

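Over 8 alternatives, 6 of the 8 genes carried a region each time, and the number of regions ran from 17 to 23 beside 19 as reported. Joining and the wider flank could not have lowered the number of genes, and no regions were close enough to be joined. The alternatives were q limits of 1e-06 and 1e-10, no flank, a flank of 10000 bp, a region at least 0.5 inside, joining within 1000 bp, unscaled tamoxifen tags at 2-fold or more, and, chosen after seeing the data, leaving out regions over another gene. The median fold ran from 4.38 (unscaled tags) to 5.66. The 4.38 was taken after regions under 2-fold had been left out, which raises that median. The number of related genes with a region was 23 in all 3 alternatives run for it. Single genes moved more. Sgcd had 2 regions at 1e-06 and 1 at 1e-10 or with unscaled tags, against 3. Sgcb had 1 region without its flank and 5 with the wider flank, against 2, and Dag1 had 3 with the wider flank. Depth limits the list to sites with 13 or more oil tags. No paired analysis was possible because each group has 1 library. Leaving out a library was not possible for the same reason.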

Other observations

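The DNA beside the 8 genes, taken as a span of each gene's own length on either side, was chosen for description after the data were seen. Dmd had 1 region inside, 7 in the span to its left and 5 in that to its right. Sgcd had 3 inside (20 to the left, 7 to the right), Dtna 1 (2 and 9) and Sntb1 none (8 and 1). Each of these 4 long genes held fewer regions than either neighbouring span. Utrn was uneven, with 10 inside, 1 to the left and 9 to the right. Among the short genes, Sgca had none inside or on either side, Dag1 had 2 inside with 2 and 4 beside it, and Sgcb had 4 in the span to its left, on the side of Lrrc66 and with the region shared with Lrrc66 among them, and none in that to its right. No test was made of these counts.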
